A study of Mus musculus with 24 samples.

Results

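The aryl hydrocarbon receptor and 4 genes tied to it were followed in the epithelial cells of mouse lung organoids grown with nylon fibers. The 5 genes are Ahr, which encodes the receptor, Arnt, which encodes its DNA-binding partner, and the receptor's targets Cyp1b1, Aldh3a1 and Tiparp. They were chosen by name, and each was represented by 1 listed transcript, that with the most counts on average in the 12 epithelial libraries. They are 5 of the 14557 gene symbols with a listed transcript, and all 5 passed the filter on low counts.

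The receptor is a ligand-activated transcription factor of the bHLH-PAS family (basic helix-loop-helix proteins with PAS domains). Without ligand it sits in the cytosol with chaperones. Once it binds dioxins, polycyclic aromatic compounds or tryptophan metabolites, it enters the nucleus, pairs with ARNT and binds response elements with the core GCGTG. ARNT also pairs with the alpha subunits of the hypoxia-inducible factors. Airway epithelium meets inhaled xenobiotics first, and the receptor's targets there include enzymes that oxidize and detoxify them.

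The study asked how nylon 6,6 fibers act on lung organoids, in which primary epithelial cells and fibroblasts grow together in Matrigel. Controls received 0 fibers, and the 2 exposed groups received 12000 or 30000 fibers per well, each fiber 12 by 31 micrometers, for 7 days. All 3 groups held 200000 EpCAM-positive lung cells of wild-type female C57BL6 mice and 200000 fibroblasts of the CCL206 line (lung, male ddY mouse) per well of a 6-well plate. EpCAM is a surface protein of epithelial cells, and beads against it separated the epithelial fraction used here (4 libraries per group, from 4 independent isolations, 1 per mouse, each mouse in all 3 groups). The labels name no ligand, inhibitor or deletion of the receptor in any group.

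The promoters of Cyp1b1 and Tiparp are shown because both are receptor targets, of which Cyp1b1 was lower at both doses while Tiparp did not pass the test at either. RefSeq promoter windows (build GRCm38.p6, 250 bases before to 50 after the gene start) matched 3 of the 5 genes, Arnt, Cyp1b1 and Tiparp. Capitals mark the core GCGTG, which reads CACGC where it lies on the opposite strand. The Cyp1b1 window is chr17:79715012-79715311 on the minus strand, and the Tiparp window is chr3:65528197-65528496 on the plus strand.
Cyp1b1: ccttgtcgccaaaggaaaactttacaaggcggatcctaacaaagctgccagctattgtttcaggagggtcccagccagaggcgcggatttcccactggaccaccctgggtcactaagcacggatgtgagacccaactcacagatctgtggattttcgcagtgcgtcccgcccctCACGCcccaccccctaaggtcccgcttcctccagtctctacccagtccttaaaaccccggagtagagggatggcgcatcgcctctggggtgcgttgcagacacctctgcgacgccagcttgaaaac
Tiparp: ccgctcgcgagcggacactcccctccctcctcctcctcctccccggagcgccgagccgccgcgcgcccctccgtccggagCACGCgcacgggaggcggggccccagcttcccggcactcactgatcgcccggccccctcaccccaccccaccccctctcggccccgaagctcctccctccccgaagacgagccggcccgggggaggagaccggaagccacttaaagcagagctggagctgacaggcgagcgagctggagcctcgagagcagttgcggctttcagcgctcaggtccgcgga
Each window held 1 core on either strand, 76 bases before the start in Cyp1b1 and 170 bases before it in Tiparp, both on the opposite strand. The Arnt window also held 1, on the given strand. None of the 3 windows held TNGCGTG, a longer form that contains the core, or ACGTG, a form of the core of the hypoxia element, which ends in the same letters CGTG. Of 32851 mouse promoter windows of the same length, 32.4% held GCGTG, 5.07% held TNGCGTG and 19.6% held ACGTG on either strand, so a window with 1 core is common.

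Library size differed by dose. The 4 control libraries held between 21222034 and 28232472 counts over all listed transcripts. At 12000 fibers the range was 20103389 to 31119155, and at 30000 fibers it was 6767842 to 9234052. The share of counts on mitochondrial genes was 6.44% ± 1.118 in control libraries, 6.08% ± 0.725 at 12000 fibers and 15.6% ± 0.885 at 30000 fibers (SD, n = 4 each). The 12000-fiber libraries therefore resembled controls in both measures, and the 30000-fiber libraries stood apart from both in every mouse.

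At 12000 fibers Ahr, Cyp1b1 and Aldh3a1 were each 2.43-fold to 3.09-fold lower than in controls, while Arnt and Tiparp did not pass the test. At 30000 fibers Ahr and Cyp1b1 were 2.76-fold and 3.30-fold lower than in controls, Aldh3a1 was 1.81-fold lower and Arnt was 1.67-fold lower. Tiparp did not pass the test there either. With library scaling taken from all listed transcripts, each of the decreases at 30000 fibers was smaller, as given for each gene below. Levels are given as CPM, counts per 1e+06 counts on the representative transcripts after TMM scaling. Changes were tested with edgeR's quasi-likelihood F test over 13759 genes, and a gene was counted as changed when its Benjamini-Hochberg adjusted p was under 0.05. In bulk libraries fewer cells of a type and less RNA per cell cannot be told apart.

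**Figure D1:**
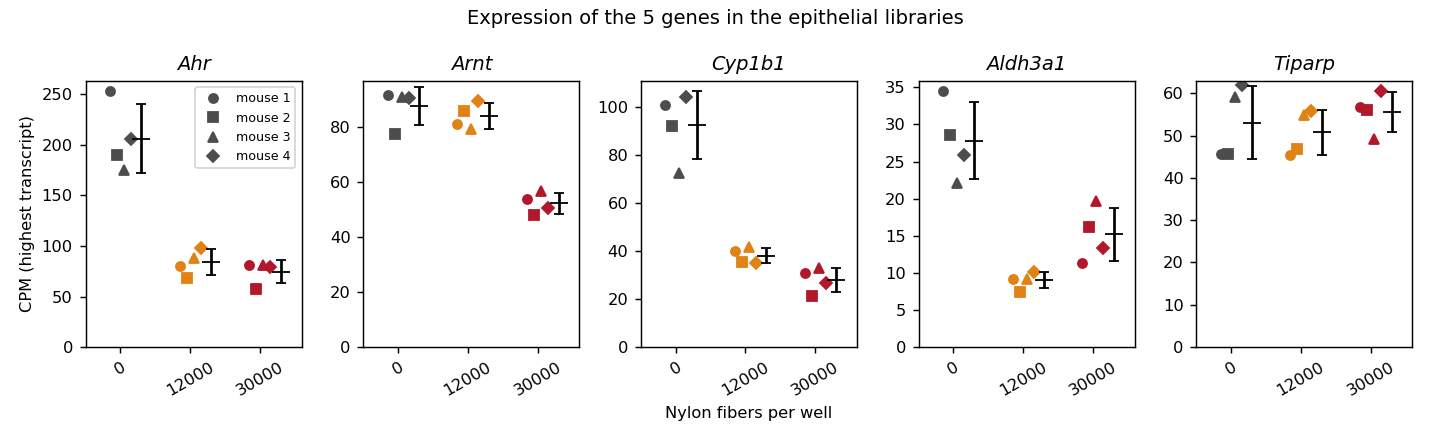
Expression of the 5 genes in the 12 epithelial libraries, as CPM of the highest transcript (vertical axes, each from 0) at 0, 12000 and 30000 nylon fibers per well. Point shapes are mice and the bars are means ± SD (n = 4). Ahr, Cyp1b1 and Aldh3a1 lay below every control at both doses, Arnt did so at 30000 fibers, and the 3 groups of Tiparp overlapped.

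The receptor gene Ahr (transcript ENSMUST00000116436, chromosome 12, 35497974 to 35535038, minus strand, 11 exons, 5548 bases; GENCODE M21, build GRCm38) had 253, 190, 176 and 206 CPM in the controls of mice 1 to 4. It had 80.0, 67.9, 88.5 and 98.3 CPM at 12000 fibers and 81.1, 57.5, 81.5 and 78.8 CPM at 30000 fibers. Every exposed library lay below every control, and the 2 exposed groups overlapped. The log2 fold change against controls was -1.30 ± 0.14 at 12000 fibers (SE, adjusted p = 9.13e-06) and -1.46 ± 0.15 at 30000 fibers (adjusted p = 1.48e-06), and Ahr was lower in 4 of 4 mice at each dose. Between 30000 and 12000 fibers the change was -0.16 ± 0.15 (95% interval -0.50 to 0.18, adjusted p = 0.389). For this transcript the greater part of the Ahr decrease was thus present at 12000 fibers. With library scaling from the table of all transcripts, the Ahr change against controls was -1.31 at 12000 fibers and -1.12 at 30000 fibers. Both still passed (adjusted p = 1.88e-05 and 3.35e-05). The part of library size, the mitochondrial share and cell type shifts in the Ahr decrease was not tested. Means were 206 ± 33.8 CPM in controls, 83.7 ± 12.9 CPM at 12000 fibers and 74.7 ± 11.6 CPM at 30000 fibers (SD, n = 4 each).

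The partner gene Arnt (ENSMUST00000090804, chromosome 3, 95434390 to 95497240, plus strand, 21 exons, 4325 bases) had 91.7, 77.5, 90.9 and 90.7 CPM in controls. It had 81.3, 86.1, 79.2 and 89.5 CPM at 12000 fibers and 54.1, 48.0, 56.8 and 50.4 CPM at 30000 fibers. Controls and 12000-fiber libraries overlapped, and all 30000-fiber libraries lay below both. The change at 12000 fibers was -0.06 ± 0.07 (95% interval -0.22 to 0.10, adjusted p = 0.531). The change at 30000 fibers was -0.74 ± 0.08 against controls (adjusted p = 1.13e-07) and -0.68 ± 0.08 against 12000 fibers (adjusted p = 6.11e-07), lower in 4 of 4 mice each. The size of the Arnt decrease depended on library scaling: it was -0.40 against controls and -0.34 against 12000 fibers with scaling from the table of all transcripts, and both still passed (adjusted p = 1.61e-04 and 0.00128). The 2 genes that form the heterodimer thus differed in dose: Ahr was already lower at 12000 fibers, while the Arnt interval there reached no lower than -0.22.

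Cyp1b1 (ENSMUST00000024894, chromosome 17, 79706953 to 79715041, minus strand, 3 exons, 5128 bases) encodes a cytochrome P450 that oxidizes polycyclic aromatic compounds and steroids. It had 100.5, 91.9, 72.3 and 104 CPM in controls, 39.8, 35.4, 41.4 and 35.1 CPM at 12000 fibers and 30.95, 21.2, 32.7 and 26.7 CPM at 30000 fibers. No 2 of the 3 groups overlapped, and their means fell in the order of dose. The log2 fold change against controls was -1.28 ± 0.11 at 12000 fibers (adjusted p = 2.05e-07) and -1.72 ± 0.13 at 30000 fibers (adjusted p = 4.49e-09), lower in 4 of 4 mice at each dose. The step between 30000 and 12000 fibers was smaller, -0.44 ± 0.14 (adjusted p = 0.0129), and less secure. It did not pass without the 30000-fiber library of mouse 2 (-0.33, adjusted p = 0.0543) or with scaling from all transcripts (-0.10, adjusted p = 0.568), and it was 0.11 with the counts of all 3 listed transcripts summed (adjusted p = 0.517). Against controls, scaling from all transcripts gave -1.29 at 12000 fibers and -1.38 at 30000 fibers. Summed transcripts gave -1.30 and -1.19 at the same doses. The values at 30000 fibers still passed (adjusted p = 1.39e-08 and 1.09e-06).

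Aldh3a1 (ENSMUST00000019246, chromosome 11, 61208745 to 61218421, plus strand, 11 exons, 1729 bases) encodes an aldehyde dehydrogenase that clears aromatic and medium-chain aldehydes. It had 34.5, 28.6, 22.1 and 25.9 CPM in controls, 9.24, 7.46, 9.20 and 10.0 CPM at 12000 fibers and 11.4, 16.2, 19.7 and 13.4 CPM at 30000 fibers. These levels rest on few reads at 30000 fibers, 29, 46, 67 and 40 counts in mice 1 to 4, against 170 to 298 counts in controls. The 3 groups did not overlap, and here the lowest group was the middle dose. The log2 fold change against controls was -1.63 ± 0.15 at 12000 fibers (adjusted p = 1.38e-07) and -0.86 ± 0.16 at 30000 fibers (adjusted p = 1.29e-04), lower in 4 of 4 mice at each dose. At 30000 fibers Aldh3a1 was 1.71-fold higher than at 12000 fibers (0.77 ± 0.18, adjusted p = 0.00151), in 4 of 4 mice. Aldh3a1 was the only 1 of the 5 genes higher at 30000 than at 12000 fibers past the test, and its change against controls at 30000 fibers was -0.52 with scaling from all transcripts (adjusted p = 0.00575).

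Tiparp (ENSMUST00000047906, chromosome 3, 65528410 to 65555518, plus strand, 6 exons, 4191 bases) encodes an ADP-ribosyltransferase that is induced by the receptor and modifies it in a negative feedback. It had 45.7, 45.5, 59.0 and 62.0 CPM in controls, 45.4, 46.8, 54.9 and 55.9 CPM at 12000 fibers and 56.8, 56.1, 49.2 and 60.5 CPM at 30000 fibers. The groups overlapped, and the same mice, 3 and 4, had the higher values in controls and at 12000 fibers. The change against controls was -0.07 ± 0.10 at 12000 fibers (95% interval -0.30 to 0.17, adjusted p = 0.650) and 0.07 ± 0.11 at 30000 fibers (95% interval -0.19 to 0.33, adjusted p = 0.628). Between 30000 and 12000 fibers it was 0.13 ± 0.12 (95% interval -0.13 to 0.40, adjusted p = 0.339). With library scaling taken from the table of all transcripts, Tiparp was higher at 30000 fibers, by 0.40 against controls (adjusted p = 0.00287) and by 0.48 against 12000 fibers (adjusted p = 8.42e-04). Its call at 30000 fibers therefore turned on the scaling, and that at 12000 fibers did not (-0.07 under it, adjusted p = 0.645).

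The counts of changed genes among the 5 stand beside a high background, since 38.0% of all tested genes changed at 12000 fibers and 65.6% at 30000 fibers against controls, and 55.4% between the doses. At 12000 fibers 3 of the 5 were lower and none higher, with 19.3% of all tested genes lower and 18.7% higher. The groups of the same 3 genes did not overlap, as was so, in the lower direction, for 18.7% of all genes. At 30000 fibers 4 of 5 were lower against controls and none higher, with 33.4% of all genes lower and 32.2% higher. Those 4 did not overlap with controls, as was so, in the lower direction, for 29.4% of all genes. Between 30000 and 12000 fibers 2 of 5 were lower (27.1% of all genes, and 25.6% lower with no overlap) and 1 was higher (28.3%). The median log2 fold change of the 5 was -1.28 at 12000 fibers and -0.86 at 30000 fibers against controls, where the medians of all tested genes were -0.0026 and -0.026. By size, the Aldh3a1 change at 12000 fibers lay far down the list, since 2.73% of all genes had a lower log2 fold change, and the shares for Ahr and Cyp1b1 were 3.79% and 3.87%. At 30000 fibers the shares were 4.09% for Cyp1b1, 5.56% for Ahr, 13.3% for Aldh3a1 and 15.9% for Arnt. Both comparisons with controls use the same 4 control libraries.

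**Figure D2:**
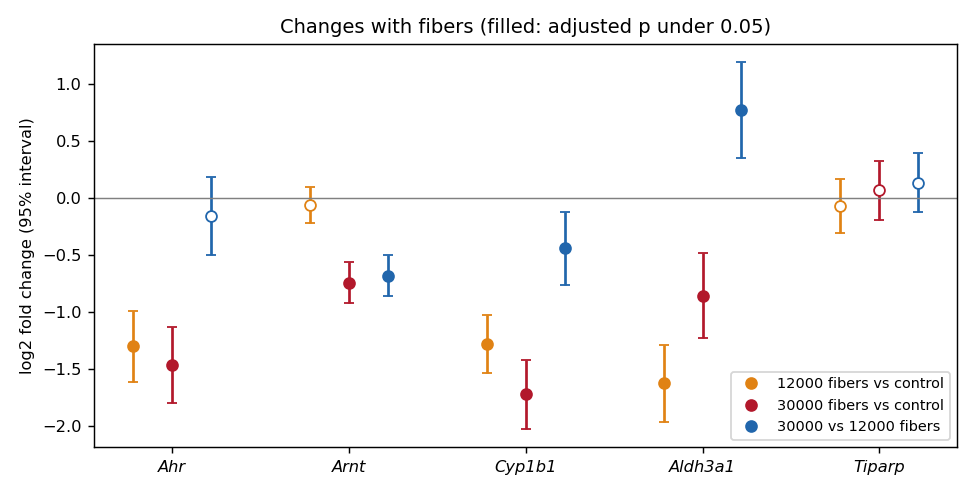
Log2 fold changes (vertical axis) of the 5 genes in the 3 comparisons, with 95% intervals from edgeR's quasi-likelihood fit. Filled points passed an adjusted p of 0.05. Ahr and Cyp1b1 lay below -1 against controls at both doses, Aldh3a1 changed by -1.63 at 12000 fibers and -0.86 at 30000 fibers, and the intervals of Tiparp held 0 in all 3 comparisons.

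Levels were compared between genes as CPM per kilobase of the representative transcript. In controls the order of levels was Ahr (37.2 ± 6.09), Arnt (20.3 ± 1.57), Cyp1b1 (18.0 ± 2.77), Aldh3a1 (16.1 ± 3.00) and Tiparp (12.7 ± 2.07, SD, n = 4 for each). Ahr stood above the rest by more than the spread, and the neighbours Arnt and Cyp1b1, Cyp1b1 and Aldh3a1, and Aldh3a1 and Tiparp were within their summed SDs. At 12000 fibers the order of levels was Arnt (19.4 ± 1.07), Ahr (15.1 ± 2.33), Tiparp (12.1 ± 1.30), Cyp1b1 (7.40 ± 0.616) and Aldh3a1 (5.20 ± 0.630), with Ahr and Tiparp within their summed SDs. At 30000 fibers Ahr (13.5 ± 2.08), Tiparp (13.3 ± 1.13) and Arnt (12.1 ± 0.902) lay within their spread of each other, above Aldh3a1 (8.77 ± 2.102) and Cyp1b1 (5.44 ± 1.00). The place of Cyp1b1 there rests on its representative transcript, with a mean of 27.9 CPM. A shorter Cyp1b1 transcript (ENSMUST00000234361, 3398 bases) had a mean of 33.9 CPM at that dose. The receptor was the highest of the 5 in controls, and its lead over Arnt was gone in both exposed groups.

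The table lists 22 transcripts of the 5 genes, which share exons. How the reads of shared exons were divided is not stated in the labels. They therefore serve as a check and not as separate measurements. Cyp1b1 has 2 other listed transcripts. One (ENSMUST00000234361, 4 exons, 3398 bases) shares all but 79 of its bases with the others and lacks 1594 bases after the coding sequence that only the highest transcript holds. The other (ENSMUST00000234927, 1436 bases) is annotated as a nonsense-mediated decay transcript. At 12000 fibers all 3 Cyp1b1 transcripts were lower than in controls, with changes of -1.28 ± 0.11 for the highest and -1.30 ± 0.12 and -1.40 ± 0.16 for the other 2 (adjusted p = 2.12e-08 and 1.10e-07, library scaling of the gene-level fit kept). At 30000 fibers all 3 were again lower, with changes of -1.72 ± 0.13, -0.80 ± 0.13 and -1.81 ± 0.22 (adjusted p = 1.01e-05 and 3.60e-08 for the other 2).

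The direction of Cyp1b1 between the 2 doses depended on the transcript. Against 12000 fibers, the transcript of 3398 bases was higher at 30000 fibers (0.50 ± 0.14, adjusted p = 0.00318), where the highest transcript was lower. Its counts divided by those of the highest transcript gave 0.656, 0.637, 0.632 and 0.632 in controls of mice 1 to 4, 0.624, 0.643, 0.670 and 0.592 at 12000 fibers, and 1.14, 1.35, 1.25 and 1.15 at 30000 fibers. All 4 ratios at 30000 fibers lay above all others, and those of the other 2 groups overlapped. The mean ratio was 1.22 ± 0.0989 at 30000 fibers and 0.639 ± 0.0110 in controls (SD, n = 4 each, exact permutation test, 2-sided, p = 0.0286, the smallest this design allows, 0.0429 after Benjamini-Hochberg adjustment over 3 comparisons). At 12000 fibers it was 0.632 ± 0.0330 (exact permutation p = 0.743 against controls). This ratio test was chosen after seeing the data and does not use the pairing by mouse. Unequal isoform change at 30000 fibers was not particular to Cyp1b1: the 2 highest transcripts of a gene differed in log2 fold change by over 1 in 11% of 11240 genes there, against 0.0801% at 12000 fibers. The median gap at 30000 fibers was 0.152. The 2 highest Cyp1b1 transcripts, at -1.72 and -0.80, differed by less than 1, so Cyp1b1 is not among the 11%. Whether the mitochondrial share, the lower depth or transcript processing moves the isoform ratios was not tested.

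For the other genes the isoform check gave the same calls at 12000 fibers. The 2 other Ahr transcripts were lower than in controls at 12000 fibers (-1.27 ± 0.12 and -1.35 ± 0.21). At 30000 fibers they were lower than in controls (-2.43 ± 0.17 and -3.22 ± 0.39) and lower than at 12000 fibers (-1.16 ± 0.19 and -1.87 ± 0.47). The highest Ahr transcript, the only 1 listed that reaches the 3′ end of the gene, showed the smallest of the 3 changes at 30000 fibers. The second Aldh3a1 transcript had nearly the same counts as the first (ratio 0.971 to 1.00) and adds no separate information. Of the 10 other Arnt transcripts none passed at 12000 fibers (-0.14 to 0.12), and at 30000 fibers the count of lower ones depended on the scaling. On the scaling of the gene table, chosen after seeing the data, 9 were lower (from -1.85 to -0.47), while ENSMUST00000147094 had a change of -0.08 ± 0.20 (adjusted p = 0.727). On the scaling over all transcripts 5 of the 10 were lower, and 4 others missed the threshold (-0.24 to -0.13, adjusted p = 0.0516 to 0.265). The call on the 2 short Tiparp transcripts at 30000 fibers depended on it too. On the scaling of the gene table they were lower than in controls, with changes of -0.64 ± 0.22 (adjusted p = 0.0119) and -0.60 ± 0.24 (adjusted p = 0.0293), and the highest had 0.07 ± 0.11. On the scaling over all transcripts they had -0.30 ± 0.22 (adjusted p = 0.240) and -0.26 ± 0.25 (adjusted p = 0.360), and neither passed, while the highest was higher than in controls (0.40 ± 0.11, adjusted p = 0.00287).

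**Figure D3:**
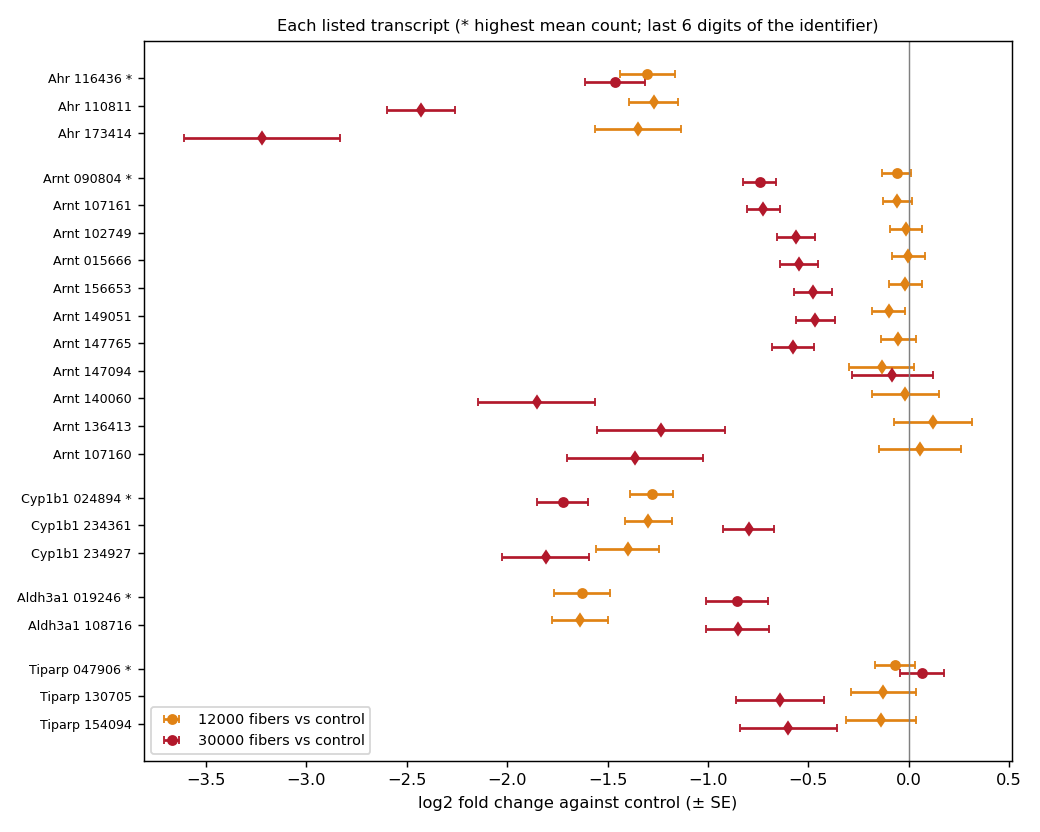
Log2 fold changes against controls (horizontal axis, ± SE) of each of the 22 listed transcripts, with the library scaling of the gene-level fit. Circles with an asterisk in the label are the transcripts with the highest mean count, diamonds the others. The 12000-fiber values of a gene lay close together, while at 30000 fibers the Cyp1b1 values ran from -1.81 to -0.80 and the Ahr values from -3.22 to -1.46.

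Some genes had nearly the same profile over the 12 libraries as a gene of the pathway. Likeness was measured as the root mean square difference of mean-centred log2 CPM among 12178 genes, with the dose groups and library depths shared by all points. Nearest to Ahr were Mtus1 (0.109), Mapk15 (0.117) and Glul (0.119), and Glul, which encodes glutamine synthetase, was also near Cyp1b1 (0.159), after Eya2 (0.142) and Cotl1 (0.143). Nearest to Arnt were Herc1 (0.0643), Btbd3 (0.0739) and Ptbp3 (0.0818). Aldh3a1 had the loosest matches, Nxn (0.189), Kif2c (0.202) and Bard1 (0.205), and Tiparp was nearest to Wsb1 (0.0776), Zfp68 (0.0954) and Lcorl (0.101).

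Other genes of the pathway were counted from lists of the receptor's partners, its other targets, xenobiotic enzymes and the relatives of the 5 genes. Of all tested genes, 19.3% were lower and 18.7% higher at 12000 fibers, and 33.4% and 32.2% at 30000 fibers. Between the doses the shares were 27.1% and 28.3%. The counts of each list below, and of the cell type markers, stand beside these shares. A list count near them is not particular to the pathway. Among 11 partners and regulators of the receptor, 4 were lower and 3 higher at 12000 fibers (median log2 fold change 0.06), and 5 lower and 2 higher at 30000 fibers (-0.16). Nrip1, a corepressor of nuclear receptors, was lower at both doses (-0.89 ± 0.09 and -1.29 ± 0.10), and Hsp90aa1, a chaperone that holds the ligand-free receptor, was higher (0.36 ± 0.07 and 0.74 ± 0.07). Hsp90ab1, of the same list and named after its values were seen, had 2029 CPM in controls against 206 CPM for Hsp90aa1. It did not pass at either dose (0.10 ± 0.07, adjusted p = 0.274, and 0.03 ± 0.07, adjusted p = 0.733). The acetyltransferase gene Crebbp was lower at both (-0.29 ± 0.06 and -0.21 ± 0.07), and Sp1 was lower at both (-0.16 ± 0.06 and -0.40 ± 0.06). Ep300 had -0.10 ± 0.06 at 12000 fibers (adjusted p = 0.202) and was lower at 30000 fibers (-0.25 ± 0.06). Scaling from all transcripts shifted the median of all genes at 30000 fibers by 0.34, and the changes of Crebbp and Ep300 there were smaller than that shift, so their direction depends on the scaling. The Sp1 change there was little larger than the shift.

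Of 9 other receptor targets tested, 6 were lower and 1 higher at 12000 fibers, a median of -0.76 where that of all genes was -0.0026. At 30000 fibers 3 were lower and 2 higher (median -0.22), and against 12000 fibers 2 were lower and 5 higher (median 0.54). Nqo1, a quinone reductase, and Serpinb2, a protease inhibitor, were lower at 12000 fibers (-0.76 ± 0.10 and -1.26 ± 0.14) and higher at 30000 than at 12000 fibers (0.54 ± 0.12 and 1.11 ± 0.16), as Aldh3a1 was. Against controls they did not pass at 30000 fibers (-0.22 ± 0.11, adjusted p = 0.102, and -0.15 ± 0.15, adjusted p = 0.378). The amino acid transporter gene Slc7a5 (-0.81 ± 0.09 and -1.47 ± 0.10) and the adhesion scaffold gene Nedd9 (-0.59 ± 0.09 and -1.13 ± 0.09) were lower at both doses. Nfe2l2, which encodes the antioxidant regulator NRF2, had 0.06 ± 0.06 at 12000 fibers (adjusted p = 0.429) and was higher at 30000 fibers (0.56 ± 0.06). The list held 14 targets, of which 10 had a listed transcript and 9 were tested. Cyp1a1, Cyp1a2 and Ahrr, the receptor's best known targets, were on the list but not among the 9.

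Among 15 other xenobiotic P450 genes and their partners, 6 were lower and 3 higher at 12000 fibers, and 5 lower and 4 higher at 30000 fibers. Por, the reductase that feeds electrons to P450 enzymes including CYP1B1, was lower at both doses (-0.60 ± 0.06 and -0.51 ± 0.06). Cyp2f2, a P450 of club cells, and Fmo2, a lung monooxygenase, had far larger changes than Cyp1b1, -4.90 ± 0.33 and -3.17 ± 0.27 at 12000 fibers and -4.43 ± 0.34 and -3.60 ± 0.33 at 30000 fibers. Cyb5r3 and Cyb5a, of the cytochrome b5 system that can also pass electrons to P450 enzymes, were higher at 30000 fibers, by 0.68 ± 0.06 and 0.79 ± 0.09. At 12000 fibers Cyb5r3 was higher (0.25 ± 0.06, adjusted p = 0.00396) and Cyb5a did not pass (0.10 ± 0.08, adjusted p = 0.37). Of 15 other aldehyde dehydrogenase genes, 4 were lower and 4 higher at 12000 fibers, and 9 lower and 2 higher at 30000 fibers. Aldh1a1 and Aldh1a7 were lower at both doses (-1.24 ± 0.13 and -0.84 ± 0.11 at 12000 fibers), Aldh1l2 was higher at both (1.06 ± 0.17 and 1.04 ± 0.19), Aldh16a1 was lower at both (-0.50 ± 0.11 and -0.94 ± 0.13), and Aldh2 was lower at 30000 fibers (-0.96 ± 0.07) with 0.16 ± 0.07 at 12000 fibers (adjusted p = 0.0597).

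Of 10 other bHLH-PAS genes, 5 were lower and 3 higher at 12000 fibers, and 5 lower and 4 higher at 30000 fibers. Epas1, which encodes a hypoxia-inducible alpha subunit that also pairs with ARNT, had 463 ± 102 CPM in controls, 127 ± 7.56 CPM at 12000 fibers and 118 ± 19.3 CPM at 30000 fibers, a profile with the shape of Ahr (-1.87 ± 0.15 and -1.97 ± 0.15). The clock genes Arntl2 (-1.03 ± 0.12 and -1.21 ± 0.15) and Npas2 (-1.05 ± 0.14 and -1.76 ± 0.19) were lower at both doses. Npas4, a neuronal activity factor, was higher at 12000 fibers (1.28 ± 0.34, adjusted p = 0.00553) and at 30000 fibers (3.25 ± 0.31), at levels of at most 5.49 CPM. Sim2 was higher at 30000 fibers (1.97 ± 0.21), with 0.50 ± 0.21 at 12000 fibers (adjusted p = 0.0705). Arnt2, a close relative of Arnt named here after its values were seen, was higher at both doses (1.04 ± 0.24 and 2.20 ± 0.25), with 3.19 ± 1.40 CPM in controls, 6.58 ± 0.496 CPM at 12000 fibers and 14.7 ± 3.28 CPM at 30000 fibers. Of 13 PARP genes related to Tiparp, 3 were lower and 1 higher at 12000 fibers, with Parp9 (-0.44 ± 0.13) and Parp1 (-0.19 ± 0.07) lower and Parp3 higher (0.41 ± 0.09). At 30000 fibers 5 were lower and 3 higher, with Parp14 (-1.10 ± 0.08), Parp1 (-0.58 ± 0.07) and Parp4 (-0.40 ± 0.06) lower. Parp4 had 0.06 ± 0.06 at 12000 fibers (adjusted p = 0.466), and its change at 30000 fibers was little larger than the shift of 0.34 from the other scaling. Of 4 genes that turn tryptophan into receptor ligands or their precursors, only Il4i1, an amino acid oxidase, passed at 12000 fibers (0.59 ± 0.20, adjusted p = 0.0250), and it had -0.03 ± 0.25 at 30000 fibers (adjusted p = 0.929). At 30000 fibers the other 3 passed, with the kynurenine aminotransferase Kyat1 (-0.65 ± 0.19, adjusted p = 0.00634) and the formamidase Afmid (-0.57 ± 0.22, adjusted p = 0.0302) lower and the aminotransferase Kyat3 higher (0.84 ± 0.29, adjusted p = 0.0147). At 12000 fibers Kyat1 had -0.31 ± 0.15, Kyat3 0.30 ± 0.25 and Afmid -0.10 ± 0.17. No gene of this list passed at 12000 fibers with summed transcripts, or without the 12000-fiber library of mouse 1, 2 or 4 or the control of mouse 2. At 30000 fibers only 1 passed without the 30000-fiber library of mouse 3.

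**Figure D4:**
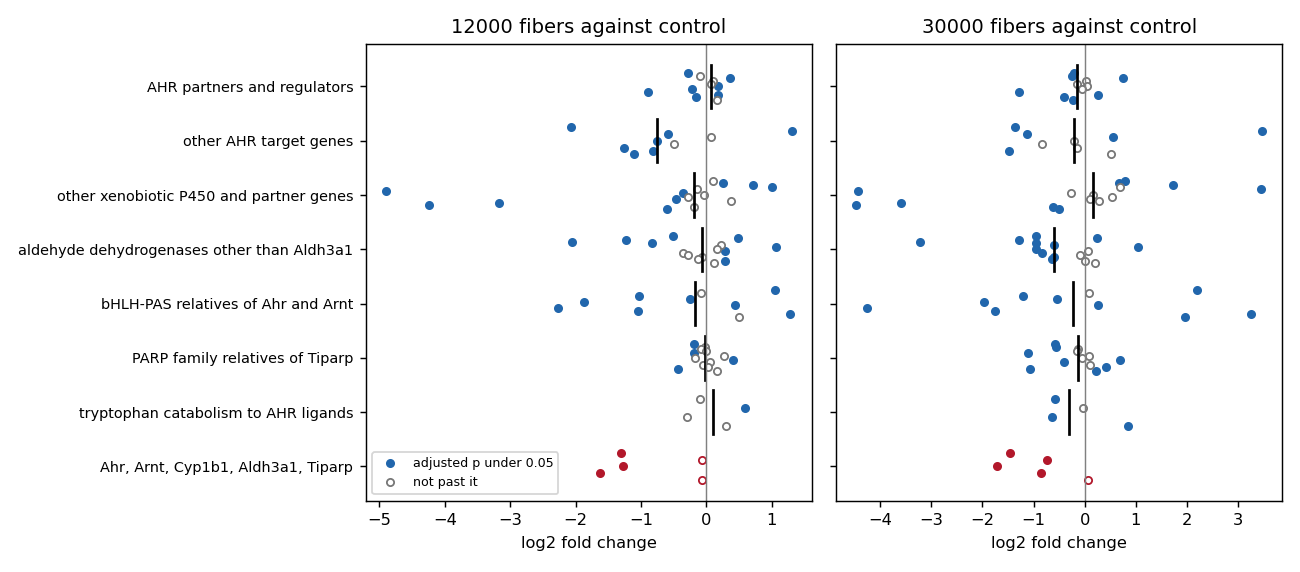
Log2 fold changes (horizontal axes) of each tested gene of 7 pathway lists and of the 5 genes at 12000 fibers and at 30000 fibers against controls, 1 row per list. Filled points passed an adjusted p of 0.05, vertical bars are list medians, and the 5 genes are in red. The other receptor targets had a median of -0.76 at 12000 fibers and -0.22 at 30000 fibers.

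Markers of cell types moved in the same libraries. Summed CPM of 12 basal markers, which mark airway progenitors, was 3390 to 4998 in the 4 controls, 1391 to 1481 in the 12000-fiber libraries and 592 to 686 in the 30000-fiber libraries. That of 10 club cell markers was 1991 to 4273, 296 to 403 and 429 to 655 in the same order, and that of 11 ciliated markers was 120.0 to 175.2, 58.2 to 66.9 and 38.1 to 63.5. Of the basal markers 11 were lower at 12000 fibers and 12 at 30000 fibers, and of the ciliated markers 11 and 9, with none higher. Of the club cell markers 9 were lower at each dose, among them Cyp2f2 (-4.90 ± 0.33 and -4.43 ± 0.34). The other one, the club cell secretoglobin Scgb1a1, was higher at 30000 fibers (4.15 ± 0.30), with 5.73 to 16.5 CPM in the 4 controls, 12.7 to 29.2 CPM in the 12000-fiber libraries and 175 to 228 CPM in the 30000-fiber libraries. At 12000 fibers its change was 0.79 ± 0.33 (adjusted p = 0.0900), and it was named after its values were seen. Like Ahr, Cyp1b1 and Aldh3a1, all 3 sums lay below every control at both doses, and so did the sum of alveolar type 1 markers. Of single markers, Krt5 (basal) changed by -3.75 ± 0.33 and Foxj1 (ciliated) by -1.25 ± 0.13 at 12000 fibers. Of 23 fibroblast markers tested (of 26 listed), 20 were higher and 1 lower at 12000 fibers and 21 higher and 1 lower at 30000 fibers, with a summed CPM of 1346 to 3217 in the 4 controls, 3855 to 4299 in the 12000-fiber libraries and 5458 to 6936 in the 30000-fiber libraries. Of these, Col1a1 had changes of 0.84 ± 0.23 and 1.59 ± 0.24 and Dcn of 1.49 ± 0.21 and 3.30 ± 0.21 at the 2 doses. The 1 lower at each dose was Fbln1 (-3.28 ± 0.25 and -5.77 ± 0.45), also named after its values were seen. It had 33.4 ± 7.79 CPM in controls and 0.608 ± 0.537 CPM at 30000 fibers. The other fibroblast markers thus moved against the direction of Ahr, Cyp1b1 and Aldh3a1, and Fbln1 moved with it.

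Epithelial markers were present in all 12 libraries, and Epcam had 604 to 743 CPM in the 4 controls, 468 to 497 in the 12000-fiber libraries and 185 to 262 in the 30000-fiber libraries. The sum of 12 epithelial markers was 6966 to 8065 in the 4 controls, 7084 to 7894 in the 12000-fiber libraries and 3972 to 4703 in the 30000-fiber libraries. At 30000 fibers the fibroblast sum was above the epithelial sum in 4 of 4 libraries, and in the other 8 libraries it was below. The 2 sums cover 23 and 12 genes of unlike length and level, so their order does not give the shares of the 2 cell types. The epithelial sum overlapped with controls at 12000 fibers, but 7 of its 12 genes were lower and 3 higher there (median -0.38). Elf3 (-1.69 ± 0.12) and Grhl2 (-0.69 ± 0.08) were lower and Cldn4 was higher (0.69 ± 0.09), 3 genes also named after their values were seen. At 30000 fibers 10 were lower and 1 higher (median -0.76). Alveolar type 2 markers summed to 1877 to 3929 in the 4 controls, 3607 to 6396 in the 12000-fiber libraries and 4459 to 6590 in the 30000-fiber libraries, and alveolar type 1 markers to 1653 to 1978, 1239.9 to 1596 and 868 to 989 in the same order. Of the 10 alveolar type 2 markers, 1 was higher and 0 lower at 12000 fibers, and 6 were higher and 2 lower at 30000 fibers. Those 2, Abca3 (-0.50 ± 0.14) and Sftpd (-0.34 ± 0.12), were also named after their values were seen. The Sftpd change was about as large as the shift of 0.34 from the other scaling. Of the alveolar type 2 sum, mean 5722 CPM at 30000 fibers, Sftpc held 3599 CPM. Of 7 alveolar type 1 markers tested, 3 were lower and 0 higher at each dose. Sftpc (alveolar type 2) had changes of 0.75 ± 0.29 at 12000 fibers (adjusted p = 0.0643) and 1.11 ± 0.29 at 30000 fibers (adjusted p = 0.00675), and Ager (alveolar type 1) 0.40 ± 0.22 and -0.53 ± 0.23 (adjusted p = 0.182 and 0.0714). Of immune markers 3 of 9 could be tested and summed to at most 42.4 CPM, and of endothelial markers 2 of 5 could be tested and summed to at most 4.02 CPM. The part of these cell type shifts in the values of the 5 genes was not tested.

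**Figure D5:**
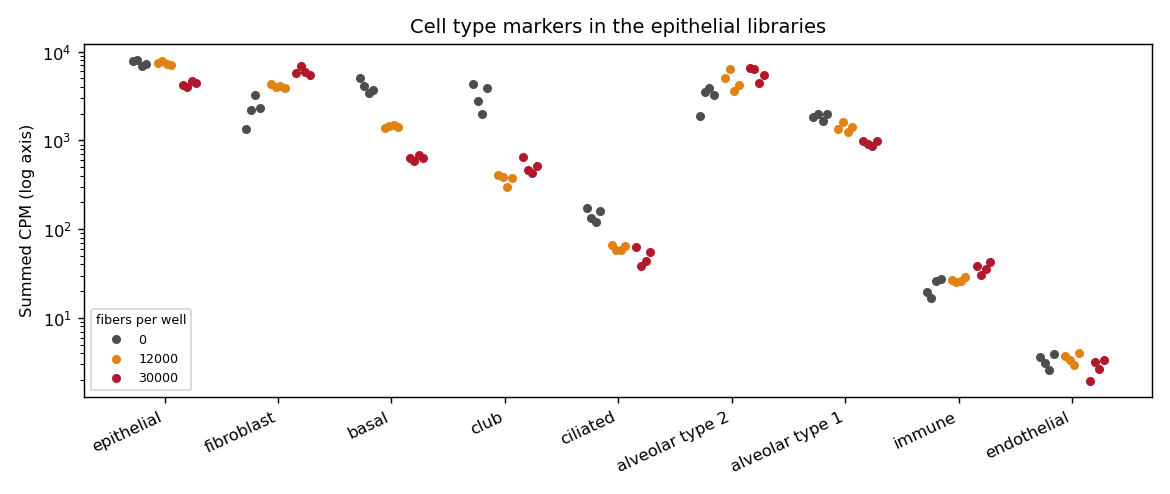
Summed CPM (vertical log axis) of 9 lists of cell type markers in each of the 12 epithelial libraries, coloured by fibers per well. Basal sums fell to 592 to 686 at 30000 fibers, against 3390 to 4998 in controls, while fibroblast sums reached 5458 to 6936 at 30000 fibers, against 1346 to 3217 in controls.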

How the data were processed

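Expression was measured by RNA sequencing of 12 epithelial libraries. The deposited values were raw counts per Ensembl transcript, whole numbers that the authors had not normalized. Each library was made from 300 ng of RNA, per the labels' protocols. The tools cutadapt 1.12 and HISAT2 2.1.0 and the build mm10 are named, without their roles, per the submitters' processing notes. Counting, strand and barcode use were not given in the sources used here. Of 71081 listed transcripts, 70518 matched GENCODE M21. The lowest total of a listed transcript over the 12 libraries was 60.

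Groups and mouse numbers came from the sample labels. Each gene was represented by its highest transcript, and 13759 of 14557 genes passed filterByExpr. All 12 libraries entered 1 edgeR 4.0.16 fit (R 4.3.3) with TMM scaling, robust dispersions, 9 residual degrees of freedom and Benjamini-Hochberg adjustment over all tested genes. Standard errors come from the F statistic, and 95% intervals from them with 9 degrees of freedom. The scripts were tested on simulated data. TMM-scaled totals ran from 2552480 to 11152925, which sets the counting precision. Same-numbered libraries come from the same mouse, per the labels, and their deviations from group means had a Pearson r of -0.019 to 0.156 across genes. Alternatives were DESeq2 1.42.0, RLE factors, no filter, summed transcripts, a mouse block, mitochondrial genes left out, 2 groups per fit, each library left out, other transcripts and a length trend. Scaling from all transcripts, other transcripts under the gene-level scaling, and the test of the Cyp1b1 isoform ratio were chosen after seeing the data.

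The 5 genes and the lists were chosen with earlier results of these data known. Named list genes were the 3 with the smallest p at 12000 fibers and up to 2 more at 30000 fibers. The fibroblast columns held 107814 entries, 36733 without an identifier (Spearman rho with the epithelial columns 0.0467), and were not used here.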

Additional observations from a re-analysis of the deposited data

Results flagged for a closer look

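Within groups of 4, a library was marked when its gap to the nearest other library, divided by the range of the group, exceeded Dixon's 95% critical value for 4 samples, a limit that chance passes in about 1 of 20 groups. Of 42 groups examined (the 5 genes and 9 marker sums at 3 doses), 2 passed it. Arnt in controls had a relative gap of 0.928, with mouse 2 at 77.5 CPM and the other 3 mice at 90.7 to 91.7 CPM. Ahr at 30000 fibers had a relative gap of 0.887, with mouse 2 at 57.5 CPM and the other 3 mice at 78.8 to 81.5 CPM. Leaving out each library in turn, these 2 among them, kept every call of Arnt and Ahr: Arnt at 30000 fibers against controls ranged from -0.80 to -0.70, and Ahr from -1.53 to -1.35.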

How the results depend on the processing

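At 12000 fibers against controls, no alternative ended or made a call among the 5 genes, and the 5 of 119 values with a turned sign were of Arnt and Tiparp, which do not pass: Arnt was 0.0528 and 0.117 for ENSMUST00000107160 and ENSMUST00000136413 (0.0576 and 0.121 with gene-level scaling), and Tiparp ran from -0.137 to 0.0187 with each library left out. Counts of all changed genes stayed within 1.5 times the main counts under every alternative. The mouse block (replicate block) gave 5521, 9141 and 7769 changed genes at 12000 fibers, at 30000 fibers and between them, against 5231, 9026 and 7621 without it, and changed no call among the 5 genes. Scaling from the table of all transcripts shifted the median of all genes at 30000 fibers by 0.34, and Tiparp then passed (0.40 against controls, 0.48 against 12000 fibers), Ahr turned to 0.18 between the doses (adjusted p = 0.337) and Cyp1b1 lost its call there (-0.10). Cyp1b1 between the doses was 0.11 with summed transcripts, 0.84 for ENSMUST00000234361 (0.50 with gene-level scaling), -0.0664 for ENSMUST00000234927 (-0.41) and -0.54 to -0.33 with each library left out, the call being lost without 30000-fiber mouse 2. Ahr between the doses passed for ENSMUST00000110811 (-0.82, or -1.16 with gene-level scaling) and ENSMUST00000173414 (-1.54, or -1.87). Arnt at 30000 fibers was -0.61 against controls and -0.57 against 12000 fibers with the length trend removed. With all-transcript scaling it lost its call against controls for ENSMUST00000015666 (-0.21), ENSMUST00000147765 (-0.24), ENSMUST00000149051 (-0.13) and ENSMUST00000156653 (-0.14), and against 12000 fibers for these (-0.20, -0.18, -0.0228 and -0.11) and ENSMUST00000102749 (-0.20). ENSMUST00000147094 gave 0.26 and 0.40 (-0.0817 and 0.0535 with gene-level scaling). Tiparp at 30000 fibers was -0.30 and -0.26 against controls for ENSMUST00000130705 and ENSMUST00000154094 (-0.64 and -0.60 with gene-level scaling), -0.17 and -0.12 against 12000 fibers (-0.51 and -0.46), and -0.00492 to 0.15 against controls with each library left out. Leaving out a library of the Cyp1b1 isoform ratio left exact permutation p at 0.0571 at 30000 fibers against either group, the smallest that 3 against 4 allows, with differences of 0.54 to 0.61 against controls and 0.55 to 0.62 against 12000 fibers, and the difference of 12000 fibers from controls ran from -0.0199 to 0.00626. List medians moved with summed transcripts for the receptor's partners (0.12, -0.12 and -0.18 in the 3 comparisons), P450 genes at 30000 fibers (0.29), aldehyde dehydrogenases between the doses (-0.40) and tryptophan genes at 30000 fibers (-0.43, and -0.49 between the doses), and for P450 genes between the doses with only those 2 groups fitted (0.43). With each library left out, the partners ran from 0.0236 to 0.0881 and from -0.19 to -0.12 against controls at 12000 and 30000 fibers, PARP genes from -0.16 to -0.0492 at 30000 fibers and -0.22 to -0.0781 between the doses, P450 genes from -0.31 to -0.12, 0.10 to 0.31 and 0.10 to 0.45 in the 3 comparisons, and tryptophan genes from -0.43 to -0.23 at 30000 fibers and -0.44 to -0.32 between the doses. At 12000 fibers the number of partners past the test was 3 without 12000-fiber mouse 2 and 4 without control mouse 1, where 7 passed, and that of PARP genes was 1 with summed transcripts and 2 without 12000-fiber mouse 3 or control mouse 4, where 4 passed. The causes were not tested. Depth limits Aldh3a1 most, with 29 to 67 counts per library at 30000 fibers.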

Other observations

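3 further receptor targets, chosen after their values were seen, stood outside the rule for named genes. Cyp2s1, a P450 of airway epithelium, had 52.5 ± 10.5 CPM in controls, 12.4 ± 1.25 CPM at 12000 fibers and 21.0 ± 10.9 CPM at 30000 fibers (SD, n = 4 each), with log2 fold changes against controls of -2.08 ± 0.25 and -1.36 ± 0.27. Ugt1a6a, a glucuronosyltransferase, was lower at 12000 fibers (-1.11 ± 0.27, edgeR adjusted p = 0.00292) and had 0.51 ± 0.28 at 30000 fibers (adjusted p = 0.111). Gsta2, a glutathione transferase, was higher at both doses (1.31 ± 0.42 and 3.47 ± 0.38), at levels of 0.375 ± 0.0952 CPM in controls, 1.03 ± 0.438 CPM at 12000 fibers and 4.44 ± 0.520 CPM at 30000 fibers.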
